A study of Mus musculus with 11 samples.

Results

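The genes described are 10 integrin subunits, the α chains Itga1, Itga2, Itga3, Itga5, Itga6 and Itgav and the β chains Itgb1, Itgb3, Itgb4 and Itgb6. They were chosen by name, with earlier results of these data known, out of 20145 genes named on the array. They are not the whole family, and other integrin subunits are given below as a list of their own. They were read by 15 of its 55681 probes. Itga1, Itgav, Itgb1, Itgb3 and Itgb6 had 2 probes each, and the remaining 5 genes had 1. All 10 passed the filter on dim signals that left 29430 features (named genes and unnamed probes) to test.

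The RNA came from mouse mammary outgrowths. Primary mammary epithelial cells were infected in suspension with a lentivirus and injected in a matrigel mixture, and the outgrowths were later sorted by CD24 and CD29 into luminal and basal cells. One lentivirus carried a hairpin called shROR2, against the non-canonical Wnt receptor gene Ror2, and the other a control hairpin called shLUC. Luminal shLUC had 3 arrays, luminal shROR2 2, basal shLUC 3 and basal shROR2 3, while one more luminal shROR2 array is not analysed here. The control cells thus went through the same infection and outgrowth as the shROR2 cells. The labels name no strain, age or interval of outgrowth and do not say which arrays share an outgrowth, and they speak of biological triplicates. The basal gate holds whatever cells carry its surface markers, and the RNA was amplified before labelling with Cy3.

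Integrins are receptors of the cell surface made of 1 α and 1 β chain, which bind proteins of the extracellular matrix outside the cell and link them to the cytoskeleton inside it. The β1 chain pairs with many α chains: with α1 and α2 it binds collagens, with α3 and α6 laminins, and with α5 fibronectin. The α6 chain also pairs with β4 in the hemidesmosome, the junction that ties keratin filaments to the basement membrane. The αv chain pairs with β3, β6 and others and binds matrix proteins that carry an arginine-glycine-aspartate sequence, and with β6 it releases TGF-β from its latent form. In the mammary duct, basal myoepithelial cells rest on the basement membrane and luminal cells line the lumen. CD29 is the protein of Itgb1, so the sort itself used that member, and CD49f, the protein of Itga6, is a common marker of basal cells.

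The sequences before the start sites of 4 members are shown to set genes called higher in basal cells, the sort antigen Itgb1 with Itga5 and Itga1, beside Itgb6, which was not called. Each is the 250 bases upstream of a RefSeq start (build GRCm38.p6), 5′ to 3′ on the strand of the gene. Capitals mark matches to motifs that were searched on both strands, GGGCGG (read as CCGCCC on the other strand), the letters that Sp1 family factors bind, and GGAATG, the letters that TEAD factors bind. The windows were chr8:128685404-128685653 on the plus strand for Itgb1, chr15:103366792-103367041 on the minus strand for Itga5, chr13:115101965-115102214 on the minus strand for Itga1 and chr2:60722604-60722853 on the minus strand for the second of the starts listed for Itgb6.
Itgb1: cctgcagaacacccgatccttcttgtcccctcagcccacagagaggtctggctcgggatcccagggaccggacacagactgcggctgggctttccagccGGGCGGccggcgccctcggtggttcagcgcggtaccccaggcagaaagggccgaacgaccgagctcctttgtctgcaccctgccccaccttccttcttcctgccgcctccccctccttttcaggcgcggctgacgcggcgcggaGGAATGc
Itga5: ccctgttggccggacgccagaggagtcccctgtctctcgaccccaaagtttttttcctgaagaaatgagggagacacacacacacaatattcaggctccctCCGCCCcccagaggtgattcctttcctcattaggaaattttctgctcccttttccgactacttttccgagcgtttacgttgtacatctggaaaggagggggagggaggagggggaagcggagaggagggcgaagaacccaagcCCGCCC
Itga1: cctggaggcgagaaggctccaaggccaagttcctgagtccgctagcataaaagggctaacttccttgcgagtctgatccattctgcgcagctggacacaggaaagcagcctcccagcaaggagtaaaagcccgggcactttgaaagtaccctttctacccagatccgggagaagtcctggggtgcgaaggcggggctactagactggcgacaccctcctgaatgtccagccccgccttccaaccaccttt
Itgb6: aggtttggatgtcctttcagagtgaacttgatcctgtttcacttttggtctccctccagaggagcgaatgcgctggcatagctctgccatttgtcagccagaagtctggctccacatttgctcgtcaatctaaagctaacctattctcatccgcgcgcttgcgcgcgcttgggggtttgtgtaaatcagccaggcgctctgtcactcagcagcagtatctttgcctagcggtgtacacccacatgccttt
The Itgb1 window held 1 GGGCGG and 1 GGAATG, the latter 7 bases before the start, and the Itga5 window held 2 GGGCGG. The Itga1 and Itgb6 windows held neither. Over 32851 mouse promoters of the same length, 32.7% held GGGCGG and 12.6% held GGAATG. The other motifs searched in all 4 windows were TGANTCA (6.75% of promoters), CAGGTG (17.2%), CCAAT (33.8%), TATAAA (12.4%) and the CArG box of serum response factor (1.47%), and none of these was matched. Of the windows not printed, the first start listed for Itgb6 held a CAGGTG 60 bases and a CArG box 50 bases before the start. The first Itga3 start held 1 GGGCGG and 1 CCAAT, the second 3 GGGCGG and 1 CAGGTG, and the Itga2 and Itgav windows no match. GC content was 68% for Itgb1 and 57.6%, 55.6% and 52% for Itga1, Itga5 and Itgb6, against a median of 52.4% over all promoters. The table held promoters for 7 of the 10 genes, and a match of letters is a description only.

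The signals below are processed intensities in the scanner's linear units. Tests used their log2 value minus the 75th percentile of the array, and a difference is a log2 difference ± its standard error from a model of all 4 group means. Adjusted p is limma's, over 29430 features, and under 0.05 a gene is called. A probe's level depends on the probe, so levels are compared between groups within a probe and not between genes. Differences between groups are set beside those of a partner chain as a description only. Each array had 52.8% to 59.5% of its probes well above background, and the lowest signal well above background was 10.8 to 14.2. Arrays of a group correlated at 0.976 to 0.983 in the other 3 groups but at 0.941 to 0.953 on basal shROR2 arrays, whose median SD over features was 0.345 against 0.188 on basal shLUC arrays. Ror2 itself was read by 1 probe near background, with signals of 10.1 to 12.1 on basal shLUC arrays and 3.03 to 16.8 on basal shROR2 arrays. The highest, 16.8, came from the array labelled basal shROR2 replicate 1, against its label, and only this array was well above background. Loss of Ror2 transcript could therefore not be checked in either compartment. Hairpin groups below are named as the labels have them.

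In control outgrowths, 7 of the 10 integrin genes were higher in basal than in luminal cells. They were Itga1, Itga3, Itga5, Itga6, Itgav, Itgb1 and Itgb4, and none was lower. Itga1 had passed the filter on dim signals through its basal arrays alone. Of all features 13.7% were called higher and 13.3% lower in this comparison. The median difference was 1.14 over the 10 genes and -0.06 over all features. The arrays of the compartments did not overlap for any of the 7 called genes, as was so, with basal higher, for 23.5% of all features (28.7% with basal lower). Itga2, Itgb3 and Itgb6 were not called. With 3 arrays in each of these groups, the p-values rest on a spread pooled over all 4 groups. Of these, basal shROR2 had the largest median SD. In sorted bulk RNA a larger share of the cells that express a gene cannot be told apart from more RNA per cell.

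**Figure D1:**
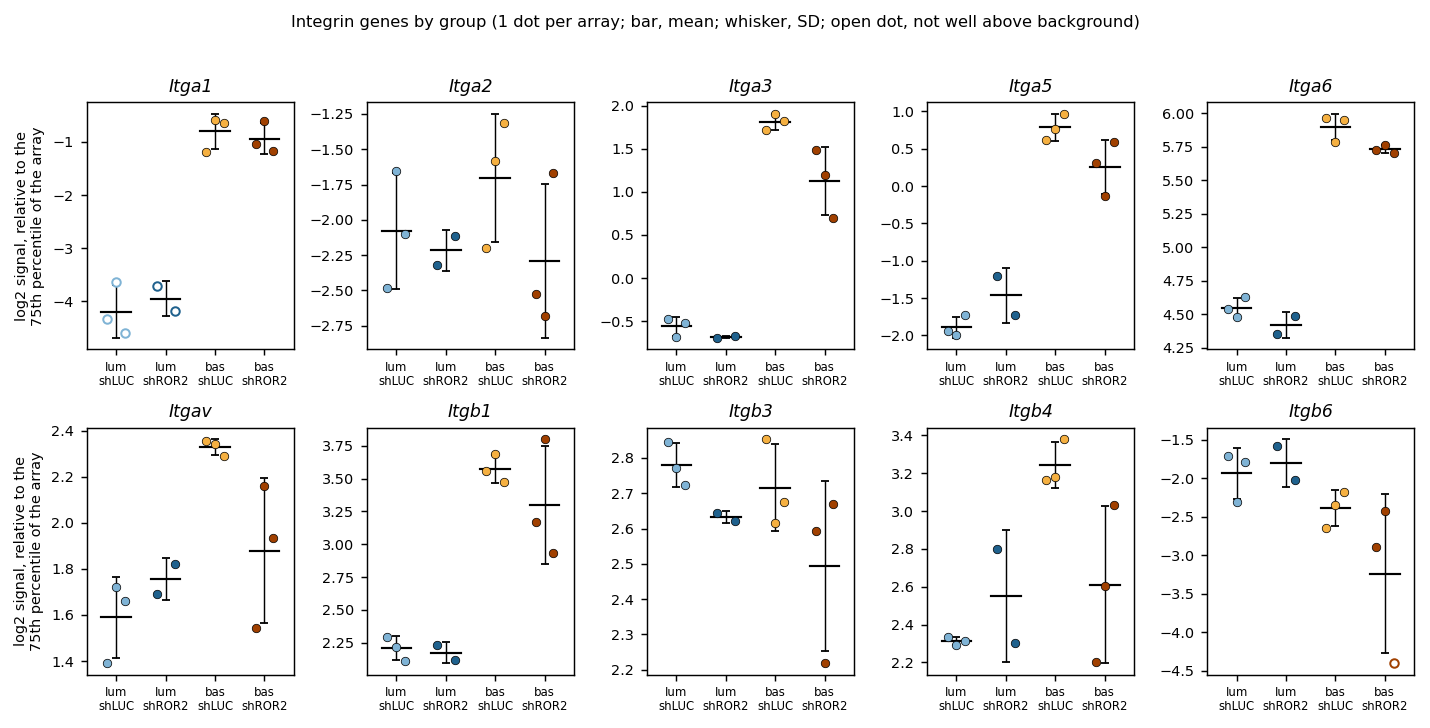
Level of each integrin gene on each array, as log2 processed signal relative to the 75th percentile of the array (vertical axis, its range set per gene), in luminal (lum) and basal (bas) cells of shLUC and shROR2 outgrowths. Dots are arrays, bars means and whiskers SD, and open dots were not well above background. In Itga1, Itga3, Itga5, Itga6 and Itgb1 all 6 basal arrays lie above all 5 luminal ones.

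Among the laminin-binding chains, Itga3 encodes the α3 chain that pairs with β1. Its signals were 82.0, 72.9 and 82.3 on luminal shLUC arrays and 388, 498 and 415 on basal shLUC arrays. In the shROR2 groups they were 76.1 and 73.2 in luminal and 324, 267 and 186 in basal cells. Every basal array was above every luminal one. Itga3 was higher in basal cells by 2.38 ± 0.18 in shLUC (5.21-fold, adjusted p = 1.99e-05) and by 1.81 ± 0.21 in shROR2 (3.51-fold, adjusted p = 0.000307). In the authors' deposited table these differences were 1.62 and 1.19. A normexp correction of the raw median signals, with an offset of 50, was also run in place of the scanner's background subtraction. It gave 1.75 and 1.28, and all these values were called. Within the slides, which held arrays of every group, the shLUC difference was 2.25 on slide 1 and 2.51 on slide 2.

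Itga6, the α6 chain shared by the laminin receptor α6β1 and the hemidesmosome, had the smallest standard error of the 10 genes. Its signals were 2650, 2616 and 2930 on luminal shLUC arrays and 7338, 7330 and 7239 on basal shLUC arrays. In shROR2 they were 2508 and 2613 in luminal and 6132, 6332 and 5976 in basal cells. The arrays thus fell into separate ranges by compartment. The difference was 1.35 ± 0.10 in shLUC (2.55-fold, adjusted p = 1.67e-05) and 1.32 ± 0.11 in shROR2 (2.49-fold, adjusted p = 5.74e-05). The basal-minus-luminal difference changed with the hairpin by -0.04 ± 0.15 (95% interval -0.38 to 0.31, adjusted p = 0.971), and this small value turned positive with scaling to the array median (0.02) and in the authors' values (0.03).

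Itgb4, the β4 chain that joins α6 in the hemidesmosome, was called between the compartments in shLUC and not in shROR2. Its signals were 576, 574 and 590 on luminal shLUC arrays and 1055, 1205 and 1219 on basal shLUC arrays. In shROR2 they were 855 and 576 in luminal and 531, 707 and 935 in basal cells. The basal shROR2 arrays all lay below the basal shLUC arrays and overlapped the luminal ones. Itgb4 was higher in basal cells by 0.93 ± 0.21 in shLUC (1.90-fold, adjusted p = 0.0111), while in shROR2 the difference was 0.06 ± 0.24 (95% interval -0.48 to 0.60, adjusted p = 0.889). The sign of the shROR2 value turned when luminal shROR2 replicate 2 (-0.19) or basal shROR2 replicate 3 (-0.15) was left out. The test of the difference between these values gave -0.87 ± 0.32 (adjusted p = 0.537), so a change of the compartment difference was not called.

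As a description of the pair, the Itga6 difference exceeded the Itgb4 difference by 0.42 in shLUC and by 1.26 in shROR2 on the log2 scale. Against Itgb1, the β chain of its other laminin receptor, the Itga6 difference was -0.01 in shLUC and 0.19 in shROR2. Itga3 exceeded Itgb1 by 1.02 and 0.68 in the same order. These comparisons of a chain with its partner were not tested, and the size of a difference also depends on the probe.

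Itgb1, the common β chain and the antigen of the sort, had signals of 559, 545 and 512 on luminal shLUC arrays and 1385, 1711 and 1299 on basal shLUC arrays. The shROR2 signals were 578 and 506 in luminal and 1039, 1624 and 874 in basal cells. All basal arrays were above all luminal arrays. The difference was 1.36 ± 0.20 in shLUC (2.58-fold, adjusted p = 0.00114) and 1.13 ± 0.23 in shROR2 (2.19-fold, adjusted p = 0.00704). The second probe gave 1.60 ± 0.13 and 1.59 ± 0.14 (adjusted p = 2.12e-05 and 6.48e-05 with each probe as a feature). Since CD29 set the gate, these values describe the sort and are no independent test. The shROR2 call was lost without luminal shROR2 replicate 2 (1.07, adjusted p = 0.0561) and with only the compared groups in the fit (adjusted p = 0.101).

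Of the collagen-binding chains, Itga1 was called higher in the basal gate in both hairpin groups, and Itga2 was not called. Itga1 signals were 5.64, 9.40 and 4.90 on luminal shLUC arrays and 9.41 and 6.42 on luminal shROR2 arrays, none well above background. In basal cells they were 51.4, 88.8 and 75.02 in shLUC and 56.1, 76.4 and 50.9 in shROR2, all well above background. Both Itga1 probes thus entered the tests only through the compartment where they were high. Against the lowest signal that counts as well above background, the brighter Itga1 probe was at least 5.05-fold higher in basal cells in shLUC (adjusted p = 3.53e-05). In shROR2 it was at least 4.54-fold higher (adjusted p = 0.000209). These bounds hold only for the background-subtracted signals of this probe, and the adjusted p-values are of limma tests on the dim luminal signals as read. The second Itga1 probe was called higher too, at least 1.66-fold and 1.94-fold. The normexp correction gave an Itga1 difference of 0.99 in shLUC, and the authors' deposited table gave 0.97, both called.

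Itga2 signals were 20.5, 37.2 and 27.7 on luminal shLUC arrays, 24.7 and 27.0 on luminal shROR2 arrays, 25.6, 44.3 and 47.0 on basal shLUC arrays and 20.1, 18.2 and 35.97 on basal shROR2 arrays. The 4 groups overlapped. The compartment difference was 0.38 ± 0.33 in shLUC (95% interval -0.38 to 1.13, adjusted p = 0.451) and -0.08 ± 0.37 in shROR2 (-0.92 to 0.77, adjusted p = 0.911). The latter turned to 0.02 with the normexp correction and in the authors' values.

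Itga5 encodes the α5 chain of the fibronectin receptor. Its signals were 29.7, 29.3 and 35.7 on luminal shLUC arrays and 180, 226 and 229 on basal shLUC arrays. In shROR2 they were 53.5 and 35.4 in luminal and 144, 106 and 171 in basal cells. The compartments did not overlap, and the basal shROR2 arrays lay nearest to the luminal ones. Itga5 was higher in basal cells by 2.68 ± 0.21 in shLUC (6.40-fold, adjusted p = 2.29e-05) and by 1.71 ± 0.24 in shROR2 (3.28-fold, adjusted p = 0.00096). In the authors' deposited table these differences were 1.29 and 0.85, and with the normexp correction 1.39 and 0.91, all called.

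Among the αv receptors, Itgav was called in the control group, and Itgb3 and Itgb6 in neither. Itgav signals were 299, 386 and 375 on luminal shLUC arrays and 602, 673 and 572 on basal shLUC arrays. In shROR2 they were 397 and 412 in luminal and 337, 521 and 437 in basal cells. The shLUC compartments were apart and the shROR2 ones overlapped. The difference was 0.74 ± 0.17 in shLUC (1.67-fold, adjusted p = 0.0104) and 0.12 ± 0.19 in shROR2 (95% interval -0.30 to 0.54, adjusted p = 0.689). The second Itgav probe gave 0.64 ± 0.12 (adjusted p = 0.00397) in shLUC and -0.02 ± 0.13 (adjusted p = 0.929) in shROR2. Without basal shROR2 replicate 2 the shROR2 value of the first probe was -0.02.

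The brighter Itgb3 probe, for the β3 chain, read 820, 799 and 782 on luminal shLUC arrays and 850, 815 and 748 on basal shLUC arrays. In shROR2 it read 769 and 718 in luminal and 697, 542 and 727 in basal cells. These ranges overlapped, and the compartment difference was -0.06 ± 0.14 in shLUC (95% interval -0.38 to 0.25, adjusted p = 0.774) and -0.14 ± 0.15 in shROR2 (adjusted p = 0.572). The dimmer probe differed in sign in shLUC. It read 377, 505 and 447 on luminal shLUC arrays and 665, 701 and 557 on basal shLUC arrays, which did not overlap, with a difference of 0.47 ± 0.28 (adjusted p = 0.252). In shROR2 it read 648 and 517 in luminal and 582, 254 and 310 in basal cells, with a difference of -0.64 ± 0.31 (adjusted p = 0.175). The probes of Itgb3 thus disagreed, and neither was called.

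Itgb6, the β6 chain, was the one member with a lower mean in basal cells on both of its probes in both hairpin groups. The brighter probe read 34.9, 23.6 and 34.4 on luminal shLUC arrays, 41.1 and 28.8 on luminal shROR2 arrays, 18.9, 26.1 and 25.8 on basal shLUC arrays and 15.6, 21.6 and 5.41 on basal shROR2 arrays. The last value was not well above background. The shLUC groups overlapped, with a difference of -0.46 ± 0.45 (adjusted p = 0.502), and the shROR2 groups did not, with -1.44 ± 0.50 (95% interval -2.57 to -0.31, adjusted p = 0.0704). With basal lower, 26.0% of all features had shROR2 arrays apart in this way. Itgb6 was called lower in shROR2 with the normexp correction (-0.32, adjusted p = 0.0413), in the authors' values (-0.32, adjusted p = 0.0376), with its probes averaged (-1.25, adjusted p = 0.0192), with array weights (-1.55, adjusted p = 0.0363) and without basal shROR2 replicate 2 (-1.85, adjusted p = 0.0211). Without basal shROR2 replicate 3, which held the dim value, the difference was -0.86. The dimmer probe gave -1.11 ± 0.69 and -1.07 ± 0.77, and neither was called.

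In shROR2 outgrowths, then, 5 of the 10 genes were called higher in basal cells (Itga1, Itga3, Itga5, Itga6 and Itgb1) and none lower. Over all features 10.6% were called higher and 12.3% lower. The median difference over the 10 genes was 0.63, against -0.08 over all features. Itgav and Itgb4 were called in shLUC and not in shROR2, and for neither was the change of the difference called. As in shLUC, 19.7% of all features had the shROR2 compartments apart with basal higher, and the same 5 called genes were apart.

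**Figure D2:**
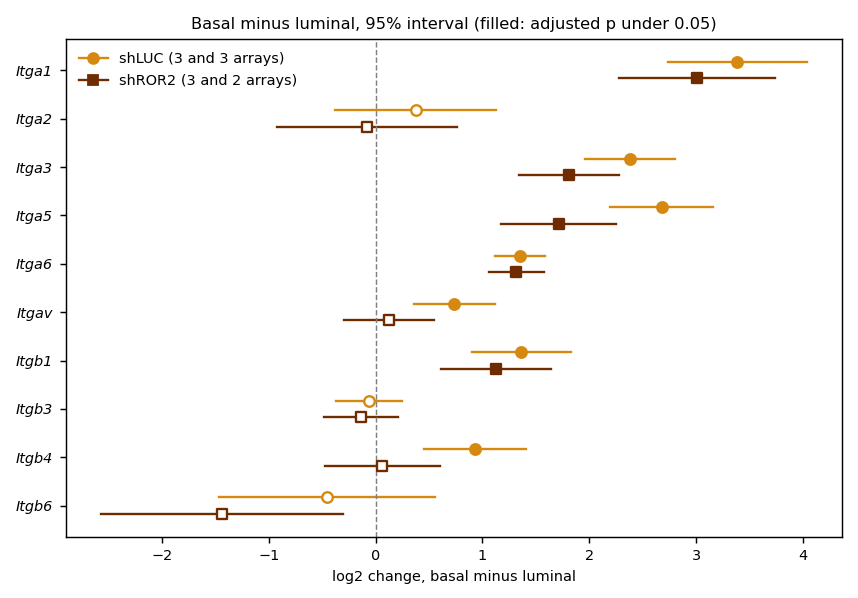
Basal-minus-luminal difference of each integrin gene on the log2 scale (horizontal axis), with its 95% interval, in shLUC (circles, 3 and 3 arrays) and shROR2 outgrowths (squares, 3 and 2 arrays). Filled symbols have an adjusted p under 0.05: 7 genes in shLUC and 5 in shROR2, with Itgav and Itgb4 open in shROR2.

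Other genes of integrin adhesion were read from lists made by their role in adhesion. For every list, the share of all features called in shLUC was 13.7% higher and 13.3% lower in basal cells. In shROR2 it was 10.6% higher and 12.3% lower. Of 13 other integrin subunits tested, 4 were higher in basal cells in both hairpin groups: Itga8 (2.29 ± 0.15 in shLUC, adjusted p = 6.65e-06), Itga9 (at least 13.4-fold, adjusted p = 9.51e-06), Itga11 (4.81 ± 0.39, adjusted p = 2.61e-05) and Itgb5 (0.46 ± 0.10, adjusted p = 0.0104). Itga8, Itga9 and Itga11 are further partners of β1, and Itgb5 is a further partner of αv. The 1 subunit called lower, in shLUC, was Itgax, a leukocyte α chain, which was named after its value was seen (at least 2.53-fold lower, adjusted p = 0.0108). The median over these 13 subunits was 0.25 in shLUC and 0.06 in shROR2.

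Of 23 matrix ligands, 16 were higher and 4 lower in basal cells in shLUC, and 15 were higher and 4 lower in shROR2. Some collagen genes of this list are also among the fibroblast markers below. The basement membrane genes Col4a2 (5.37 ± 0.14), Lama3 (3.76 ± 0.11), Col4a1 (4.74 ± 0.15) and Lamb3 (3.49 ± 0.13) had the smallest p in shLUC. The 4 lower ligands, named after their values were seen, were Spp1 (-4.41 ± 0.27), Npnt (-1.85 ± 0.50), Ltbp1 (-1.35 ± 0.25) and Lama5 (-0.73 ± 0.13) in shLUC. Lama3 and Lamb3 encode laminin chains, and laminins are ligands of the α3β1 and α6β4 integrins. The median over the ligands was 2.45 in shLUC and 2.49 in shROR2.

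Of 27 adaptors, kinases and activators at the inner side of integrins, 17 were higher and 1 lower in basal cells in shLUC, and 15 were higher and 0 lower in shROR2. Flna, an actin crosslinker that binds β chains, was higher by 3.00 ± 0.11 in shLUC, Tns1, a tensin of focal adhesions, by 3.52 ± 0.18, and Actn1, which crosslinks actin, by 2.42 ± 0.14. Rsu1, a partner of the ILK complex, was higher by 2.19 ± 0.14. The 1 lower gene, named after its value was seen, was Sharpin (-1.002 ± 0.18), an inhibitor of integrin activation. The medians were 0.92 and 0.82.

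Of 9 hemidesmosome and tetraspanin genes, 5 were higher and 2 lower in basal cells in shLUC, and 5 were higher and 3 lower in shROR2. Higher were Krt5 (7.87 ± 0.14) and Krt14 (5.34 ± 0.13), the keratins anchored by hemidesmosomes, Col17a1 (6.82 ± 0.31), the transmembrane collagen beside α6β4, and Dst (1.51 ± 0.12), a plakin linking keratin to it. Krt5 and Krt14 are also among the myoepithelial markers below, so they are no result independent of those. Lower, and named after their values were seen, were the tetraspanin genes Cd82 (-1.95 ± 0.28) and Cd81 (-0.46 ± 0.11), joined in shROR2 by the plectin gene Plec (-0.53 ± 0.15). The medians were 1.51 in shLUC and 1.14 in shROR2.

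**Figure D3:**
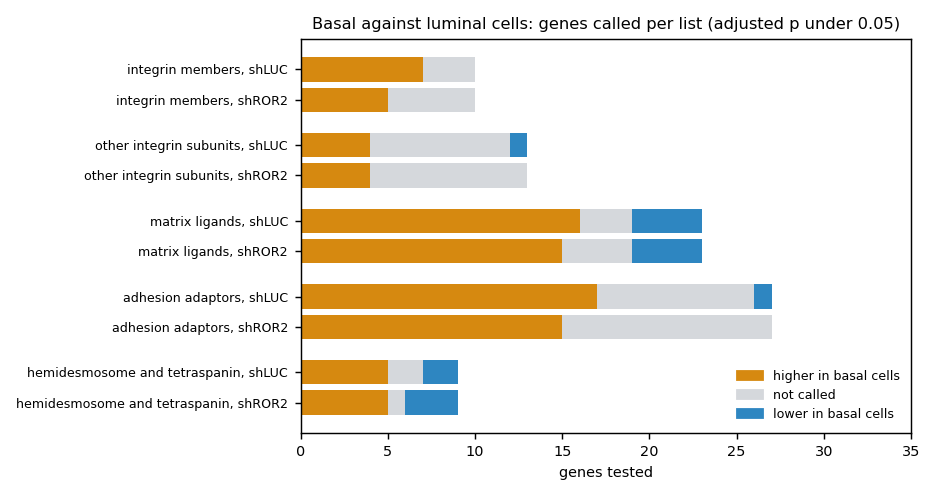
Number of genes tested in each list (horizontal axis) that were called higher in basal cells (orange), called lower (blue) or not called (grey), in shLUC and shROR2 outgrowths. Higher calls outnumber lower ones in every list, with 7 and 0 among the 10 integrin genes in shLUC and 16 and 4 among 23 matrix ligands.

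The labels were checked against cell type markers, summed as signal relative to the 75th percentile, so that the brightest probes weigh most. The luminal markers include Cd24a, the gene of the sort antigen CD24, so that sum is not independent of the sort. The 8 myoepithelial markers summed to 1421 to 1655 on basal and 107.4 to 118.9 on luminal arrays, and the 9 luminal markers to 81.1 to 118.2 on basal and 453.8 to 519.0 on luminal arrays. Markers of other cells moved with the compartments as well. The 6 fibroblast markers summed to 6.14 to 6.29 on luminal shLUC arrays, 10.6 to 10.7 on luminal shROR2 arrays, 47.6 to 52.0 on basal shLUC arrays and 46.7 to 61.4 on basal shROR2 arrays. All 6 were called higher in basal cells in shLUC and 4 in shROR2. Lum and Pdgfra were not well above background on any luminal array, and Pdgfra on none of basal shROR2. The 6 endothelial markers summed to 10.7 to 11.5, 13.2 to 13.6, 19.2 to 24.1 and 35.5 to 44.7 in the same order of groups, with 4 and 5 called higher in basal cells. Leukocyte sums were 63.1 to 65.9, 74.8 to 77.7, 49.1 to 51.0 and 68.0 to 71.9. Of 5 leukocyte markers tested, 2 were called lower in basal cells in shLUC and 1 in shROR2. Pericyte sums were 3.07 to 3.31, 3.97 to 4.34, 3.74 to 4.53 and 5.34 to 7.09. Of 4 pericyte markers, 2 were called higher and 1 lower in shLUC, and 3 higher and 1 lower in shROR2. Fibroblasts and endothelial cells also carry integrins such as α1, α5 and αv, and their part in the integrin differences was not tested. Summed levels of 4 platelet markers, cells that carry β3, were at most 1.73 on any array, and Gp9 and Ppbp were never well above background.

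With the hairpin in basal cells, none of the 10 integrin genes was called, while 0.965% of all features were (0.384% higher and 0.581% lower). All 10 had a negative difference, with a median of -0.49 and a range from -0.85 to -0.13, against a median of -0.05 over all features, of which 44.6% were positive. The size of the members' median depended on the processing. All 10 stayed negative, but the median was -0.21 with the normexp correction and its offset, and -0.18 in the authors' values. For Itga1 the sign depended on the probe. For 5 of the 10, Itga3, Itga5, Itga6, Itgav and Itgb4, all arrays labelled basal shROR2 lay below all basal shLUC arrays, as they did for 11.7% of all features (6.73% lay above). This comparison shares its arrays with those between compartments, so the values of both are given side by side and not correlated.

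**Figure D4:**
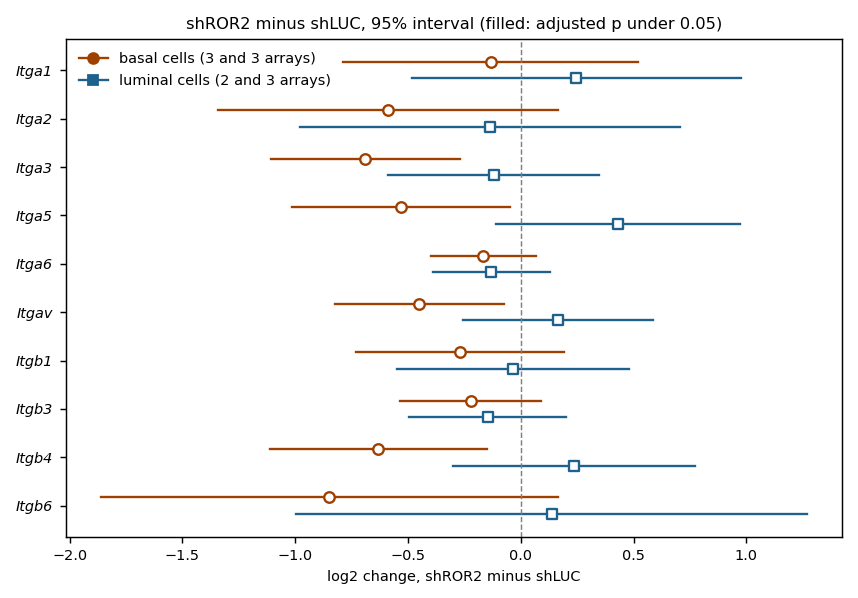
Difference shROR2 minus shLUC of each integrin gene on the log2 scale (horizontal axis), with its 95% interval, in basal cells (circles, 3 and 3 arrays) and luminal cells (squares, 2 and 3 arrays). No symbol is filled, since none had an adjusted p under 0.05; the basal intervals of Itga3, Itga5, Itgav and Itgb4 lie below 0 before adjustment.

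Itga3 had the smallest p of the members in basal cells. From the signals given above (388, 498 and 415 against 324, 267 and 186), its difference was -0.69 ± 0.18 (95% interval -1.11 to -0.27, adjusted p = 0.127). It was -0.68 on slide 1 and -0.71 on slide 2. Itga3 was called lower without the array labelled basal shROR2 replicate 1 (-0.87, adjusted p = 0.0361), and with the normexp correction (-0.59, adjusted p = 0.0444). In these settings 901 and 692 of all features were called, against 284 in the main one. Over all its alternatives the adjusted p ranged from 0.0361 to 0.402.

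Itgb4 had a difference of -0.63 ± 0.21 (95% interval -1.11 to -0.15, adjusted p = 0.202), with -0.66 on slide 1 and -0.58 on slide 2. Itga5 had -0.53 ± 0.21 (-1.01 to -0.05, adjusted p = 0.273), with -0.34 and -0.91 on the slides. Itgav had -0.45 ± 0.17 (-0.83 to -0.07, adjusted p = 0.239), and its second probe -0.31 ± 0.12 (adjusted p = 0.249), also with the arrays apart. For these genes every slide had a negative value, though a slide held only 1 or 2 arrays of a group.

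Itga6 had a difference of -0.17 ± 0.10 (95% interval -0.40 to 0.07, adjusted p = 0.474), small although its arrays were apart. Itgb1 had -0.27 ± 0.20 (-0.73 to 0.19, adjusted p = 0.566), from -0.46 on slide 1 to 0.12 on slide 2, and its second probe -0.17 ± 0.13. Itga2 had -0.59 ± 0.33 (adjusted p = 0.432) and Itgb6 -0.85 ± 0.45 (adjusted p = 0.400), both with overlapping arrays. With the normexp correction these values were -0.17 for Itga2 and -0.12 for Itgb6, and in the authors' values -0.17 and -0.15. The brighter Itgb3 probe had -0.22 ± 0.14 (adjusted p = 0.478) and the dimmer one -0.75 ± 0.28 (adjusted p = 0.237). Itga1 had -0.13 ± 0.29 (adjusted p = 0.864), against 0.24 ± 0.36 on its second probe.

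The spread within basal shROR2 was larger than in basal shLUC for 8 of the 10 members, as for 74.6% of all features. Replicate 3 of basal shROR2 was the lowest of its group for 5 members, replicate 2 for 3 and replicate 1 for 2. The lowest array thus differed among the members. In the same comparison, 2 of 6 endothelial markers (Plvap and Emcn) and 1 of 5 leukocyte markers tested (Cd74) were called higher, and no myoepithelial, luminal, fibroblast or pericyte marker was called. The summed levels of most lists were nevertheless apart. Endothelial sums were 35.5 to 44.7 in basal shROR2 against 19.2 to 24.1 in basal shLUC, leukocyte sums 68.0 to 71.9 against 49.1 to 51.0, luminal sums 95.002 to 118.2 against 81.1 to 84.4 and pericyte sums 5.34 to 7.09 against 3.74 to 4.53. Myoepithelial sums were lower, 1421 to 1471 against 1487 to 1655, and fibroblast and platelet sums overlapped. The part of these markers in the integrin values was not tested.

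In luminal cells none of the 10 was called with the hairpin, and 0.00340% of all features were, that is 1. The members' differences were 5 positive and 5 negative, with a median of 0.05 and a range from -0.15 to 0.43. The median over all features was -0.0012. For Itga5, the shROR2 signals of 53.5 and 35.4 overlapped the shLUC signals, but both lay above them once scaled, with a difference of 0.43 ± 0.24 (95% interval -0.11 to 0.97, adjusted p = 0.9999). The brighter Itgb3 probe was apart in the other direction, with -0.15 ± 0.15, while its dimmer probe was apart with shROR2 higher, 0.36 ± 0.31. The second Itgav probe read 214, 238 and 220 in shLUC and 290 and 294 in shROR2, a difference of 0.34 ± 0.13 (adjusted p = 0.817), and the first 0.17 ± 0.19. Groups of 3 and 2 arrays were apart with shROR2 higher for 14.4% of all features and lower for 14.6%. The luminal, endothelial, fibroblast, pericyte and leukocyte sums were higher on both luminal shROR2 arrays than on the 3 shLUC arrays, with leukocyte sums of 74.8 to 77.7 against 63.1 to 65.9, and their part in these values was not tested.

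Whether the hairpin acted differently in the compartments was tested as the difference of its basal and luminal differences. No member was called, nor was any of the 29430 features (0%), of which 2440 had an unadjusted p under 0.05. All 10 values were negative, with a median of -0.51 against -0.04 over all features. The median was -0.15 with the normexp correction and -0.17 in the authors' values. In the authors' values Itga6 turned positive (0.03), and Itgb1 gave 0.04. This Itgb1 value came from its second probe, the brighter one in those values. That probe had -0.01 ± 0.19 in the main setting, and the first Itgb1 probe -0.24 ± 0.30. Among the brighter probes, the largest ratios of value to error were those of Itga5 (-0.96 ± 0.32, 95% interval -1.69 to -0.24, adjusted p = 0.509), Itgb4 (-0.87 ± 0.32, adjusted p = 0.537) and Itgav (-0.61 ± 0.25, adjusted p = 0.572). The second Itgav probe gave -0.66 ± 0.18 (adjusted p = 0.417 with each probe as a feature). Itgb6 had -0.99 ± 0.67 (adjusted p = 0.754) on its brighter probe and 0.04 ± 1.03 on its dimmer one, and Itgb3 -0.08 ± 0.21 and -1.11 ± 0.42.

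**Figure D5:**
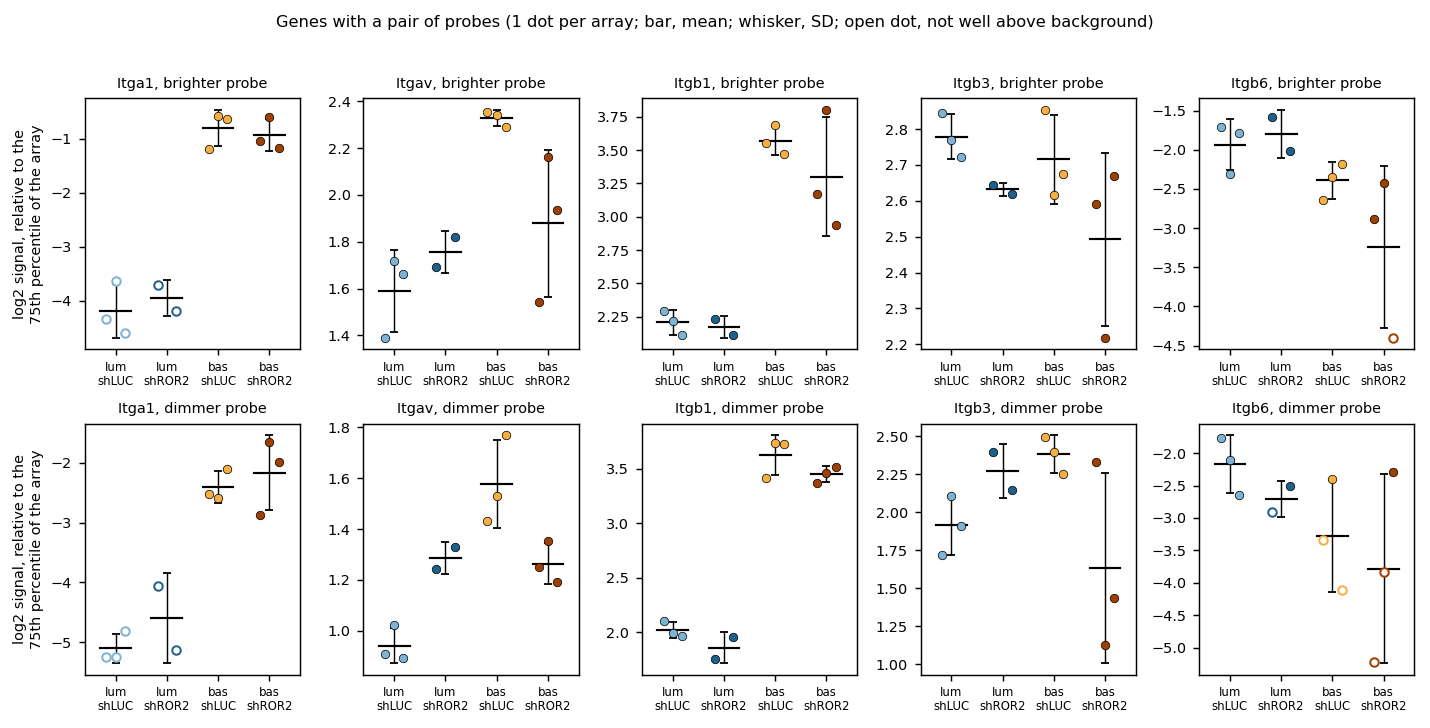
Levels on each array, as log2 processed signal relative to the 75th percentile of the array (vertical axis, range set per probe), for the 5 integrin genes with a pair of probes: the probe with the higher mean (top) and the other (bottom), in luminal (lum) and basal (bas) cells. Dots are arrays, bars means and whiskers SD, and open dots were not well above background. The Itga1, Itgav and Itgb1 pairs gave like compartment differences in shLUC, and the Itgb3 pair differed in sign.

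None of the 4 adhesion lists had a gene called with the hairpin in either compartment. Of all features, 0.965% were called in basal and 0.00340% in luminal cells. In basal cells the smallest p among other subunits, adaptors, and hemidesmosome and tetraspanin genes belonged to Itgb5 (0.42 ± 0.10, adjusted p = 0.101), the tensin gene Tns4 (-0.73 ± 0.19, adjusted p = 0.112) and the tetraspanin gene Cd9 (-0.33 ± 0.10, adjusted p = 0.165). In luminal cells the smallest p of the 4 lists belonged to Itga8 (1.07 ± 0.17, adjusted p = 0.160), Fn1, the fibronectin gene (0.94 ± 0.14, adjusted p = 0.155), Tns1 (0.68 ± 0.20, adjusted p = 0.590) and Cd81 (0.25 ± 0.12, adjusted p = 0.940). The list medians in basal cells were -0.13 for other subunits, -0.07 for ligands, -0.12 for adaptors and -0.16 for hemidesmosome and tetraspanin genes, against -0.05 for all features.

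The genes whose levels ran most alike with each member were found by Pearson's r over the 11 arrays among 10581 named genes. Arrays of both compartments entered together, and these values carry no test. For Itga6 they were Sntb2 and Smtn (both 0.995), for Itga5 Aplp2 (0.994) and Aars (0.992), for Itga3 Sox4 and Ehd2 (both 0.992), for Itga1 Bst2 (0.993) and the laminin gene Lama1 (0.991), and for Itgb1 Foxo1 (0.988) and B4galt6 (0.986). The likeness was lower for Itgb4 (Eml4, 0.970), Itgb6 (Tceal1, 0.953), Itgb3 (Pgap3, 0.951) and Itgav (Zcchc3, 0.948), and lowest for Itga2 (Tor1b, 0.863).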

How the data were processed

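Scanner files of 11 one-colour Agilent mouse arrays were used. Their intensity values were made, per the file headers, by Agilent Feature Extraction 11.0.1.1, subtracting background within each array without normalization between arrays. The authors' deposited table of intensity values, used as an alternative, was normalized in a way not given in the sources used here. On the log2 scale it correlated at 0.956 to 0.966 with the processed signal.

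Probes were named through RefSeq accessions (26582 with a symbol, 29099 without). Spots of a probe were averaged. Values were log2 processed signal minus the array's 75th percentile. A probe was kept if well above background on 3 or more of the 11 arrays, and the probe with the highest mean stood for a gene. Alternatives with other values or arrays picked this probe anew. This left 14069 named genes and 15361 unnamed probes, fitted with limma 3.58.1 (lmFit and eBayes with 1.85 prior degrees of freedom, R 4.3.3). Two-sided p-values were adjusted for each comparison by the Benjamini-Hochberg method. The code was tested on simulated data. Figures used matplotlib 3.10.9 in Python 3.11.15. The number of arrays limits the precision.

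Alternatives covered the scaling, background correction, the authors' values, the filter, the probes, the samples fitted, slide, replicate number, array weights and leaving out each array. The normexp correction added an offset of 50 to the signals, which by itself makes log2 differences of dim probes smaller. The members and the gene lists were chosen with earlier results of these data known. Every member is named, and from each other list up to 4 genes with the smallest p among those called, or otherwise the 1 with the smallest p. One gene that this rule picked among the matrix ligands is not reported here. Groups came from the labels.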

Additional observations from a re-analysis of the deposited data

How the results depend on the processing

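The 7 genes called in shLUC and the counts of 0 in luminal cells and for the difference of hairpin effects were the same under every alternative run. In shROR2 the count of called members was 5, with 4 to 6 when an array was left out, and in basal cells with the hairpin it was 0, with 0 to 1. It was 1 with the normexp correction of the median signals. The normexp correction planned on mean signals could not be run, since the scanner output read here held no such column. Its replacement, like treating each probe as a feature, was chosen after seeing the data. Whether replicate numbers pair the arrays could not be settled. Deviations of same-numbered arrays from their group means correlated at -0.04 to 0.04 over 15 pairs, with a median of 0.02. Over 30 pairs of other numbers the range was -0.07 to 0.05 and the median -0.008. Of the arrays, 4 correlated best with their own number. With so few arrays a group, these values cannot exclude a pairing. With the replicate block, 7, 5, 0, 0 and 0 members were called in the 5 comparisons, and 7266, 5810, 37, 0 and 0 features. The block turned Itgb4 in shROR2 to -0.032 and Itga2 in luminal cells to 0.028.

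Other signs that turned, none in a called value, were as follows. Averaging a gene's probes gave 0.20 for Itgb3 in shLUC, 0.052 for Itga1 in basal cells with the hairpin, and 0.11 for Itgb3 and -0.20 for Itgb6 in luminal cells. The second probe gave 0.47 for Itgb3 in shLUC, -0.022 for Itgav in shROR2, 0.24 for Itga1 in basal cells, 0.36 for Itgb3 and -0.54 for Itgb6 in luminal cells, and 0.039 for Itgb6 in the difference of hairpin effects. The normexp correction gave 0.025 for Itga2 in shROR2 and -0.020 for Itga1 in luminal cells. The authors' values gave 0.017 for Itga2 in shROR2 and, in the difference of hairpin effects, 0.033 for Itga6 and 0.044 for Itgb1. For Itgb1 this was a change of probe, since its second probe was the brighter one in the authors' values. Median scaling gave 0.022 for Itga6 in the difference of hairpin effects. Leaving out arrays gave, in shROR2, -0.39 to 0.12 for Itga2, -0.017 to 0.29 for Itgav and -0.19 to 0.31 for Itgb4. In luminal cells with the hairpin it gave -0.092 to 0.024 for Itgb1, -0.34 to 0.075 for Itga2, -0.082 to 0.36 for Itgb6 and -0.012 to 0.48 for Itgb4. In the difference of hairpin effects it gave -0.10 to 0.032 for Itga6 and -0.16 to 0.062 for Itgb3.

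Counts over all features moved more. In shROR2, 6722 became 2828 with only the compared groups and 3779 to 7555 without an array (3779 and 3970 without luminal shROR2 replicate 1 or 2). In basal cells with the hairpin, 284 became 692 with normexp, 538 in the authors' values, 135 with no filter, 0 with only the compared groups, 133 with the slide as a block, 37 with the replicate block, 43 with array weights and 18 to 901 without an array. The lowest was without basal shLUC replicate 1 and the highest without basal shROR2 replicate 1, and leaving out any array but basal shROR2 replicate 2 (422) moved it by over 1.5 times. The split of 113 higher and 171 lower became 109 and 97 with median scaling. In luminal cells 1 became 0 with median scaling, averaged probes, only the compared groups, the slide or the replicate block, 5 with quantile normalization, 22 with normexp, 21 in the authors' values, 3 with no filter, 6 with the stricter filter, 62 with array weights and 0 to 10 without an array (10 without basal shROR2 replicate 2). In the difference of hairpin effects 0 became 1 with median scaling, 2 with quantile normalization, 7 with normexp and in the authors' values, 3 with the stricter filter and 0 to 7 without an array (7 without basal shROR2 replicate 3). The cause was not tested. Signal near background limits Itga1 in luminal cells and Itgb6, and 2 arrays limit luminal shROR2.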
